A study of Mus musculus with 32 samples.

Results

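Clear cell sarcomas of mice were compared with control tissue by RNA sequencing, over every transcript of the table and with the spread over the 4 ways in which the tumours had been started. The libraries were chosen by their labels, and they were 13 clear cell sarcomas and 6 controls out of 32 libraries in the series. The other 13 libraries, 7 osteosarcomas and 6 synovial sarcomas, served in the model only to estimate the spread. They also counted where transcripts were filtered by level, and so in which transcripts were tested, and where libraries were rescaled. Total RNA was extracted with a column kit and DNase and made into TruSeq libraries.

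Clear cell sarcoma is a tumour of the soft tissue near tendons, and in patients it is known for a fusion of EWSR1 with ATF1. The fusion joins a strong activating part of EWSR1 to the DNA-binding part of ATF1, a factor of the CREB family that otherwise waits for cyclic AMP signals. Human tumours of this kind often express genes of the pigment cell lineage. In the mouse model, Cre, a recombinase that cuts DNA between loxP sites, switches on a human fusion gene placed at the Rosa26 locus.

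The tumour groups differed in the Cre that started them, per the series' design text. Rosa26CreER started 5 tumours, titled R26CreEA1N1 to R26CreEA1N5. CreER is a Cre that tamoxifen switches on, and the Rosa26 locus is active in nearly every cell type. TATCre, a Cre protein that enters cells by itself, started 4 tumours, titled TATCreEA1N123-RLN, TATCreEA1N123-Rleg, TATCreEA1N178-Lleg and TATCreEA1N179-Larm. The titles of this group alone carry what reads as a site, and 2 of the 4 share the number N123. Prx1CreERT2, driven from a regulatory sequence that is active in the mesenchyme of the limb buds, started 2 tumours (Prx1CreER-EA1N2 and Prx1CreER-EA1N4). Bmi1IRESCreERT2, expressed from the Bmi1 gene, started the other 2 (Bmi1CreER-EA1N1 and Bmi1CreER-EA1N2). All 13 titles carry EA1, which the labels do not spell out. The 6 controls are titled Chest1, Chest2, Chest3, Chest4, Chest5 and Bone3, and nothing in the labels says which tissue they were, which Cre or other alleles they carried, or whether their animals had been treated. Strain, age and sampling day are not given, and nothing says that the libraries of a group came from separate animals. The p-values below therefore reflect only how these libraries vary, which can include technical variation.

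The values are RPKM, reads scaled by the length of the transcript and by the reads of the library. Transcripts carry UCSC identifiers, which the files do not pair with gene names, so neither genes, gene lists, cell type markers nor sequences are given, and the label of the tumours was not checked against markers. Reads per transcript and depths were recovered from the steps of the RPKM values. The tumours held 8.11 to 11.5 M reads and the controls 9.18 to 12 M. Means were 9.54 ± 1.22 M (SD, n = 13) and 10.3 ± 1.02 M (SD, n = 6), a difference within the spread between libraries (exact permutation test, two-sided, p = 0.186, adjusted over 5 library measures 0.309). Tumours had 13379 ± 908 transcripts above 0 and controls 13386 ± 805 (exact permutation p = 0.987, adjusted 0.987). A value listed at 0 is not absence, and zeros were shared between particular libraries. Of the 32 libraries, 28 fell into 14 pairs in which 72 to 486 transcripts were at 0 in only 1 of the pair, against 1893 or more in each of the other 482 pairs. Transcripts listed in these pairs had 20 or more reads in the pair together, with 48 exceptions over all 14 pairs. A 0 can thus stand for up to 19 reads where the partner is at 0 too. Among the 19 libraries, 17 had such a partner. The partners were the 2 Prx1CreERT2 tumours with each other, R26CreEA1N1 with Bmi1CreER-EA1N2, R26CreEA1N3 with Bmi1CreER-EA1N1, and the control-tumour pairs Chest4 with R26CreEA1N4 and Chest3 with TATCreEA1N123-Rleg, while the other 7 had osteosarcomas or synovial sarcomas as partners. No partner was found for TATCreEA1N123-RLN and TATCreEA1N179-Larm. No source used here names the step that set these values to 0. The counts of transcripts above 0 and the measures below that include low values carry this.

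Before the comparison, the 19 libraries were set against each other pair by pair. The distance of a pair is the SD, over the 15230 tested transcripts, of the difference in log2(RPKM + 1). Pairs of controls lay 0.81 to 1.40 apart, with a median of 1.2 over 15 pairs. Tumours started by the same Cre were 0.93 to 1.49 apart (median 1.32, 18 pairs), and tumours started by different Cre were 1.16 to 2.08 apart (median 1.54, 60 pairs). A tumour and a control were 1.48 to 2.40 apart (median 2.08, 78 pairs). The ranges of tumour-control pairs and of pairs of tumours from different Cre groups overlap. Over the 6781 transcripts with a mean of at least 100 reads, chosen after the shared zeros were seen, control pairs were 0.17 to 0.77 apart, tumours of the same Cre 0.62 to 1.17, tumours of different Cre 0.81 to 1.83 and tumour-control pairs 1.24 to 2.35.

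Chest1 and Chest2 were the closest of all pairs by distance, at 0.81. Their Spearman correlation across transcripts was 0.929, below the 0.941 of the 2 Prx1CreERT2 tumours, which share their zeros. Over the transcripts with a mean of at least 100 reads they were 0.17 apart, against 0.37 for Bone3 and Chest4, the next pair, and 0.62 or more for the rest. Their reads were compared with a chi-square statistic per transcript over 11645 transcripts that had reads in both and at least 20 reads in the pair. Counting noise alone gives a median statistic of 0.455 and puts 5% of transcripts past the 5% point. The pair had a median of 0.564, a mean of 1.56 and 8.33% of transcripts past that point. The next pair, Bone3 and Chest4, had a median of 1.26 and 27.5% past the point, and the other 13 control pairs had medians of 4.98 to 8.74 and 54.8 to 63.8% past it. Chest1 and Chest2 thus differed by little more than counting noise, but by more (chi-square test over all transcripts, p = 2.95e-293, which takes PCR reads as independent molecules). They were kept as 2 controls, and the main count is also given below with their mean as 1 control. Bone3 did not stand apart from the Chest controls. Chest3 lay farther out, with 910 transcripts at least 2-fold below the lowest other control, against 160 for Bone3 and 20 to 77 for the other 4. Over the transcripts with a mean of at least 100 reads these numbers were 128 for Chest3, 15 for Bone3 and 1 to 26 for the other 4.

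**Figure D1:**
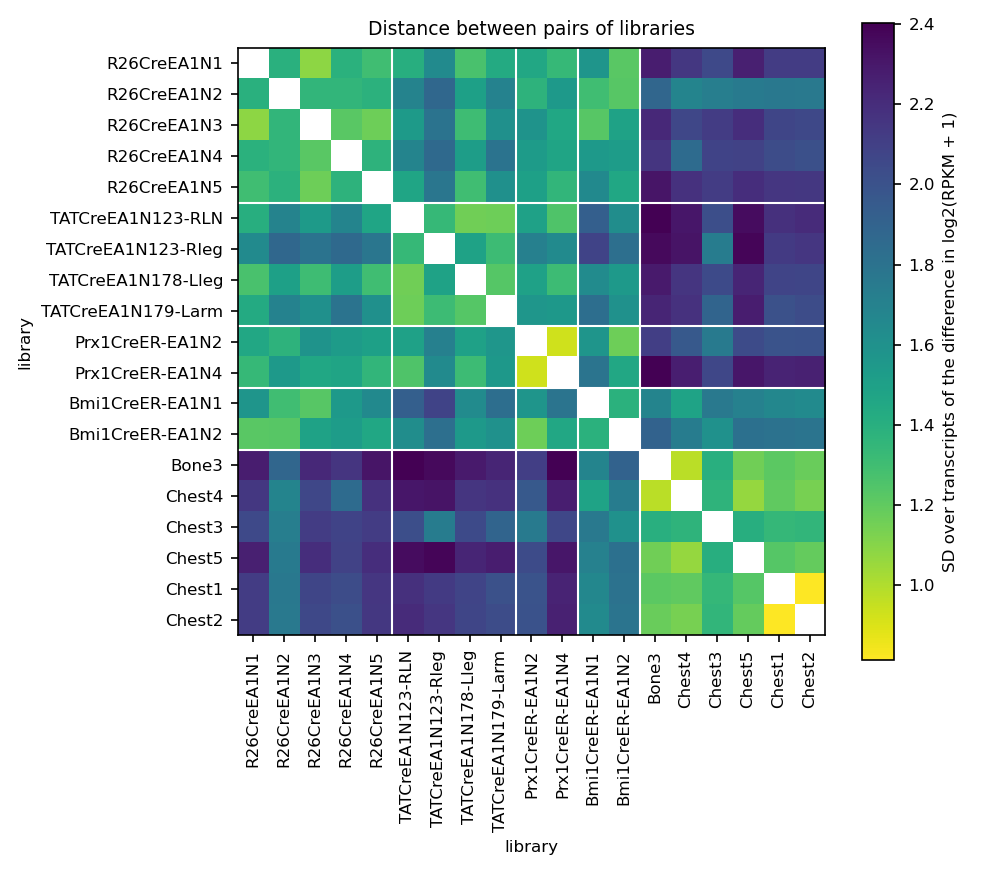
Distance between each pair of the 19 libraries, as the SD over 15230 transcripts of the difference in log2(RPKM + 1). Both axes list the libraries, white lines part the Cre groups and the controls, and yellow is close. Chest1 and Chest2 are the closest pair at 0.81, Bone3 and Chest4 are 0.98 apart, and the rows of the 2 Bmi1CreER tumours are paler against the controls than those of most other tumours.

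Of the 15230 transcripts, 7772 (51.0%) differed between clear cell sarcoma and control at an adjusted p under 0.05 by limma. Higher in the tumours were 5312 (34.9% of those tested) and lower were 2460 (16.2%). In bulk tissue, fewer cells of a type and less RNA per cell cannot be told apart, and this holds for all changes below. With Chest1 and Chest2 averaged as 1 control, 7336 transcripts were called, 5124 higher and 2212 lower. With Bone3 and Chest4 averaged too, a choice made after these pairs were seen, 6396 were called, 4458 higher and 1938 lower. With zeros filled with 9.5 reads where both libraries of a pair were at 0 or a library had no partner, another choice made after the shared zeros were seen, 7739 were called, 5396 higher and 2343 lower. The median log2 fold change over all tested transcripts was 0.35.

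The split of directions depended on how the libraries were scaled. In the deposited RPKM, 68.35% of calls were higher in the tumours. With each library scaled by its median ratio, 3555 were higher and 3907 lower (47.64% higher), and with quantile normalization 3896 were higher and 3614 lower (51.88%). These scalings moved the median log2 fold change of all transcripts by -0.36 and -0.29. A transcript that is modestly higher on the deposited scale is therefore higher only relative to that scale. Of the 7772 calls, 6013 were called in the same direction under median ratio scaling and 6341 under quantile normalization.

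The make-up of the libraries differed between the groups in the same comparison. The 100 transcripts with the most reads took 35.3 ± 4.40% of reads in the tumours (SD, n = 13, range 28.2 to 45.6) and 52.2 ± 4.12% in the controls (SD, n = 6, range 47.1 to 56.6). The ranges do not overlap, and the exact permutation p of 3.69e-05 is the smallest that 13 against 6 libraries allow (adjusted 0.000184). Its part in the split of directions was not tested. Transcripts under 100 bases took 0.789 ± 0.0652% of reads in the tumours and 0.805 ± 0.0493% in the controls (exact permutation p = 0.604, adjusted 0.755). They made up 37.4 ± 2.94% of summed RPKM in the tumours against 31.2 ± 2.34% in the controls (exact permutation p = 0.000405, adjusted 0.00101). Each read on a very short transcript is worth many RPKM.

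Large changes went in both directions. Among the calls, 3827 transcripts (25.1% of those tested) were at least 2-fold higher in the tumours and 1869 (12.3%) at least 2-fold lower. At least 8-fold, the numbers were 555 higher (3.64%) and 534 lower (3.51%), and at least 32-fold they were 85 higher (0.558%) and 151 lower (0.991%). Folds are on the log2(RPKM + 1) scale. The largest folds thus leaned towards lower in the tumours, while the calls as a whole leaned towards higher. At 8-fold, the lean depended on the scale: median ratio scaling gave 406 higher and 712 lower, while log2(reads per M reads + 1) gave 470 higher and 378 lower and transcripts of at least 100 bases alone gave 431 higher and 380 lower. With the zeros filled it was 406 higher and 333 lower. At 32-fold, lower outnumbered higher in each of these, with 58 against 212, 73 against 93, 56 against 93 and 52 against 85.

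**Figure D2:**
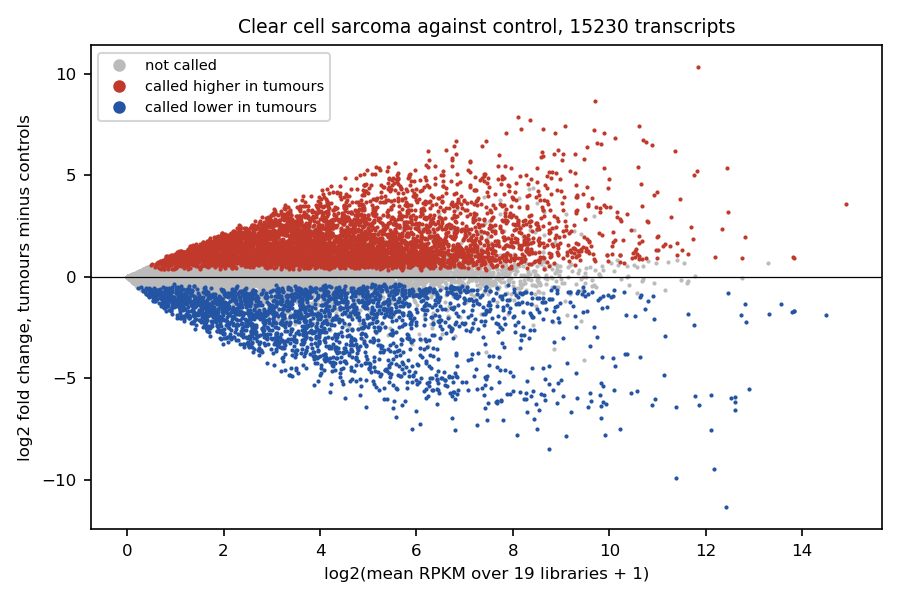
Log2 fold change of 15230 transcripts, tumours minus controls, against log2 of the mean RPKM over the 19 libraries plus 1. Each point is a transcript, red and blue are the 5312 and 2460 called higher and lower (limma, adjusted p under 0.05) and grey the rest. Blue points reach further from 0 at high levels than red ones, and red points are the more numerous.

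The transcripts called lower in the tumours took much of the reads of a control library. The 2460 transcripts held a median of 68.4% of control reads (range 62.2 to 72.2) and 13.8% of tumour reads (range 9.10 to 44.0). The 5312 called higher held a median of 65.6% of tumour reads (range 40.1 to 72.5) and 14.2% of control reads (range 12 to 17.6). The 534 transcripts that were at least 8-fold lower had a median length of 364 bases, and 28.8% of them were under 100 bases. The 555 at least 8-fold higher had a median length of 1043 bases, with 22.3% under 100 bases. These shares describe the libraries that chose the sets and support nothing further.

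Calls were more frequent among abundant and long transcripts. The share called was 17.9% of 1555 transcripts with a mean RPKM under 1, 44.7% of 6137 from 1 to 10, 60.9% of 5912 from 10 to 100, 69.7% of 1473 from 100 to 1000 and 81.0% of 153 above that, where 73 were higher and 51 lower. By length, 43.3% of 1604 transcripts under 100 bases were called, 45.1% of 3217 from 100 to below 500 bases, 52.2% of 5975 from 500 to below 2000 bases and 56.5% of 4434 from 2000 bases up. The median size of the change, whatever its direction, was 1.24 (log2) under 100 bases and 0.78 from 2000 bases up. With log2(reads per M reads + 1) in place of RPKM it was 0.56 and 0.92, so the order by length turned with the unit.

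Transcripts were named by rank of fold change among calls that were 100 bases or longer, averaged 5 RPKM or more in the group with more, and had every tumour on the same side of every control. The first 2 in each direction are given here. Because the rule took transcripts whose groups do not overlap, that they do not is no finding. Where transcripts of a locus share sequence, the counting could have split their reads.

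The transcript with the largest rise was uc007equ.1, 3083 bases long. Its RPKM in the tumours had a lowest value of 199, a median of 1144 and a highest value of 2692. In the controls the lowest was 0.668, the median 1.5 and the highest 2.80, from 22 to 90 reads. The 5 Rosa26CreER tumours held 2692, 1923, 1585, 1567 and 992 RPKM. The TATCre tumours held 789 (N179-Larm), 1144 (N123-Rleg), 1163 (N178-Lleg) and 1273 (N123-RLN). The Prx1CreERT2 tumours held 1022 and 494, and the Bmi1IRESCreERT2 tumours 919 and 199. The lowest tumour, Bmi1CreER-EA1N2, was thus still far above the highest control, Chest3. Means were 1212 ± 636 (SD, n = 13) and 1.64 ± 0.851 (SD, n = 6), a log2 fold change of 8.68 ± 0.55 (SE, limma adjusted p = 3.15e-13). By Cre group the log2 fold change against the same controls was 9.37 ± 0.65 for Rosa26CreER, 8.74 ± 0.69 for TATCre, 8.14 ± 0.87 for Prx1CreERT2 and 7.41 ± 0.87 for Bmi1IRESCreERT2. The moderated F test did not separate the 4 groups (limma adjusted p = 0.359).

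The second, uc009czd.1, is 2073 bases long and had the smallest standard error of the 4. Its lowest, median and highest RPKM were 140.0, 443 and 638 in the tumours. In the controls they were 0, 0.657 and 1.16, where Bone3 was the library listed at 0. The TATCre tumours were the highest group, with 507 (N123-Rleg), 594 (N179-Larm), 629 (N178-Lleg) and 638 (N123-RLN). The Rosa26CreER tumours ranged from 140.0 in R26CreEA1N2 to 486 in R26CreEA1N1. The Prx1CreERT2 tumours had 237 and 534, and the Bmi1IRESCreERT2 tumours 250.0 and 184. All 13 values lie far above the controls, while the TATCre and Rosa26CreER groups do not overlap with each other. The mean was 400 ± 179 in the tumours (SD, n = 13) against 0.627 ± 0.510 (SD, n = 6), a log2 fold change of 7.85 ± 0.29 (SE, limma adjusted p = 1.38e-18). It was 7.57 ± 0.31 for Rosa26CreER, 8.57 ± 0.33 for TATCre, 7.84 ± 0.42 for Prx1CreERT2 and 7.11 ± 0.42 for Bmi1IRESCreERT2, and the F test missed the threshold (limma adjusted p = 0.0756).

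The transcript with the largest fall was uc009kic.1, 480 bases long. In the controls it had 64.1 RPKM in Chest3, 210 in Chest4, 337 in Bone3, 369 in Chest5, 2036 in Chest1 and 2057 in Chest2. The controls thus spread over a wide range, with the near-identical Chest1 and Chest2 at its top. In the tumours it was listed at 0 in 6 libraries, and the median was 0.189 RPKM, which in R26CreEA1N3 is 1 read. The highest tumour was Bmi1CreER-EA1N1 with 41.6 RPKM from 178 reads, next to the lowest control. Bmi1CreER-EA1N2 was listed at 0. The Prx1CreERT2 tumours held 2.31 and 3.54 RPKM, and the TATCre tumours 1.1, 0.723, 1.90 and 0. The mean was 3.95 ± 11.4 in the tumours (SD, n = 13) and 845 ± 937 in the controls (SD, n = 6), a log2 fold change of -7.78 ± 0.88 (SE, limma adjusted p = 3.08e-08). With Chest1 and Chest2 averaged as 1 control, the log2 fold change was -7.34 (limma adjusted p = 3.24e-07). That of uc008odn.1, described next, was then -7.39, so the order of the 2 rests on counting both libraries. By group, against all 6 controls, uc009kic.1 was at -8.73 ± 1.06 for Rosa26CreER, -7.93 ± 1.13 for TATCre, -6.82 ± 1.43 for Prx1CreERT2 and -6.07 ± 1.43 for Bmi1IRESCreERT2. The F test did not separate the groups (limma adjusted p = 0.496).

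The second falling transcript, uc008odn.1, is 250 bases long. Its controls were closer together, at 146 (Chest4), 209 (Chest3), 225 (Bone3), 362 (Chest5), 561 (Chest2) and 569 RPKM (Chest1). Of the 13 tumours, 9 were listed at 0, among them both Prx1CreERT2 tumours. Those above 0 were Bmi1CreER-EA1N1 with 28.8 RPKM from 64 reads, R26CreEA1N2 with 2.56 from 6 reads, N178-Lleg with 1.46 from 4 reads and N179-Larm with 0.873 from 2 reads. The highest tumour was again Bmi1CreER-EA1N1, and it stayed below the lowest control. The fitted log2 difference of -7.57 ± 0.95 (SE, limma adjusted p = 1.74e-07) was between means of 2.59 ± 7.90 RPKM (SD, n = 13) and 345 ± 184 RPKM (SD, n = 6). It was -7.89 ± 1.18 for Rosa26CreER, -7.70 ± 1.26 for TATCre and -5.81 ± 1.59 for Bmi1IRESCreERT2. No fold is given for the Prx1CreERT2 tumours, which share their zeros and were both listed at 0. There was no separation of the groups in the F test (limma adjusted p = 0.736). Fitted folds of values listed at 0 depend on the pseudocount, and with the zeros filled the log2 difference was -6.46.

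**Figure D3:**
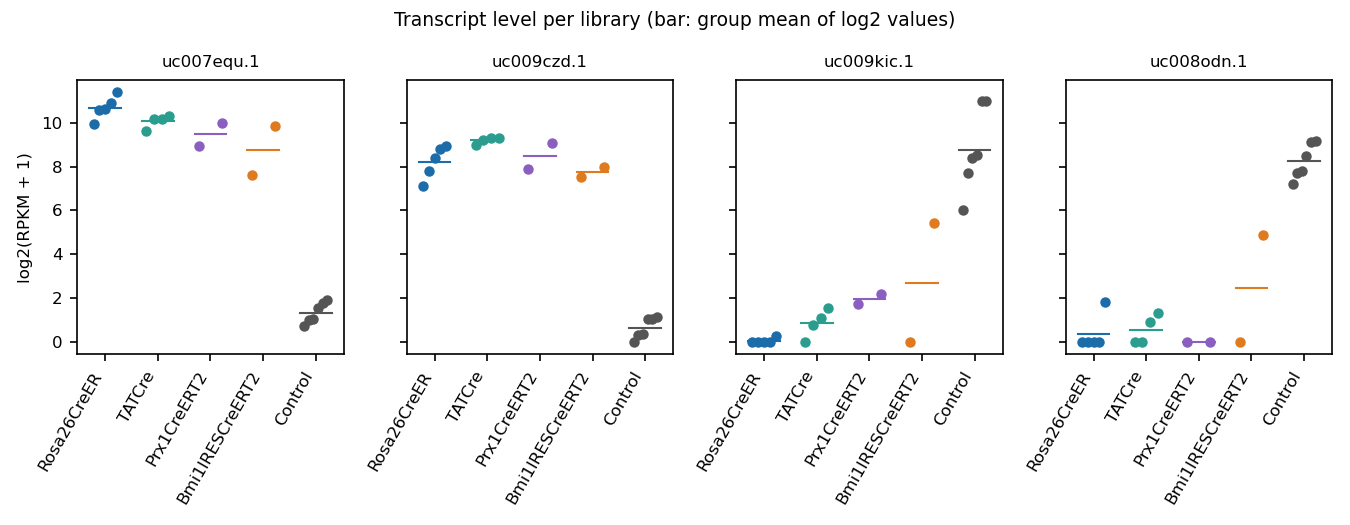
Level of the 4 named transcripts in each library, as log2(RPKM + 1), by initiating Cre and in the controls. Points are libraries and bars the group means of log2 values. The 2 left panels show the rising transcripts uc007equ.1 and uc009czd.1, and the 2 right panels uc009kic.1 and uc008odn.1, where Bmi1CreER-EA1N1 is the tumour nearest to the controls at 41.6 and 28.8 RPKM.

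Tumours and controls were fully apart for 1814 transcripts in which all 13 tumours were above all 6 controls (11.9% of those tested) and for 656 in which all 13 were below (4.31%). The lean depended on the scale: median ratio scaling gave 1074 above and 1280 below, and quantile normalization 970 above and 1177 below. The gap between the nearest tumour and control, on RPKM + 1, was at least 2-fold in 418 of the former and 101 of the latter. These are 2.75 and 0.663% of those tested. It was at least 8-fold in 31 (0.204%) and 13 (0.0854%), and at least 32-fold in 4 (0.0263%) and 3 (0.0197%). Of the 5312 transcripts called higher, 4201 had 10 or more tumours above the range of the controls. Of the 2460 called lower, 1580 had 10 or more tumours below that range. All 13 tumours were outside that range in 1812 of those called higher and 651 of those called lower. In the other calls the groups overlap. These calls were made with the same libraries, so the counts are a description. Over all tested transcripts, those with 10 or more tumours outside the range were not counted. For the transcripts changed at least 8-fold, all 13 tumours were outside the range of the controls in 372 of 555 higher (67%) and in 224 of 534 lower (41.9%).

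Few transcripts could be split between the groups by listings at 0, since control-tumour pairs share zeros. Only 486 transcripts were at 0 in only 1 of Chest4 and R26CreEA1N4, and 421 in only 1 of Chest3 and TATCreEA1N123-Rleg. Of the 55419 transcripts, 6 were listed at 0 in all 6 controls and above 0 in all 13 tumours, and 9 showed the reverse. How few they are is therefore no finding. In the first kind, 4 of 6 had at least 10 reads in every tumour, and in the second, 9 of 9 had at least 10 reads in every control. In libraries outside these control-tumour pairs, a 0 can still stand for up to 19 reads where the partner is at 0 too. These are thus counts of listings and not of transcripts switched on or off. Transcripts above 0 in all 19 libraries numbered 8927.

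The 4 Cre groups were each compared with the same 6 controls, so their lists share those libraries and are given side by side. The Rosa26CreER tumours differed in 7153 transcripts (47.0% of those tested), 5238 higher (34.4%) and 1915 lower (12.6%), with a median log2 fold change over all transcripts of 0.46. The TATCre tumours differed in 6861 (45.0%), 4257 higher (28.0%) and 2604 lower (17.1%), with a median of 0.20. The Prx1CreERT2 tumours differed in 5370 (35.3%), 3615 higher (23.7%) and 1755 lower (11.5%), with a median of 0.25. The Bmi1IRESCreERT2 tumours differed in 1944 (12.8%), 1652 higher (10.8%) and 292 lower (1.92%), with a median of 0.28. The groups hold 5, 4, 2 and 2 tumours, and the median standard error of a log2 fold change was 0.38, 0.41, 0.52 and 0.52, which follows from these numbers under the spread that the model pools over groups.

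**Figure D4:**
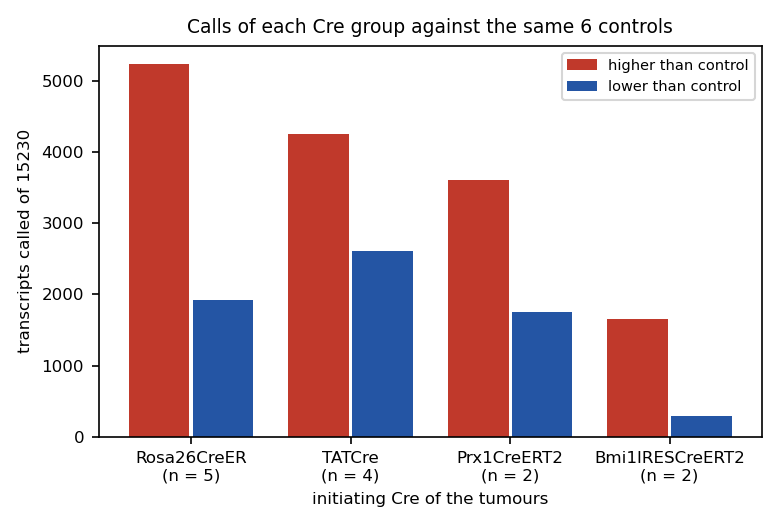
Number of transcripts called higher (red) and lower (blue) than the 6 controls in each Cre group, of 15230 tested (limma, adjusted p under 0.05). The x axis gives the initiating Cre with its number of tumours, and the bars fall from 5238 and 1915 in Rosa26CreER to 1652 and 292 in Bmi1IRESCreERT2.

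The counts in the groups of 2 moved with single libraries. The Prx1CreERT2 count was 3371 without Prx1CreER-EA1N2 and 1672 without Prx1CreER-EA1N4. The Bmi1IRESCreERT2 count was 850 without Bmi1CreER-EA1N1 and 650 without Bmi1CreER-EA1N2, each with the remaining tumour assumed to vary like the other groups. With only the 19 libraries in the fit, the Bmi1IRESCreERT2 count was 3002. Scaling moved the direction here as well. The share of calls that were higher was 73.23% for Rosa26CreER, 62.05% for TATCre, 67.32% for Prx1CreERT2 and 84.98% for Bmi1IRESCreERT2 in the deposited RPKM. Under median ratio scaling it was 50.53, 44.45, 45.99 and 61.94%, and under quantile normalization 52.59, 54.19, 55 and 52.11%. At least 8-fold higher were 727 transcripts (4.77%) in Rosa26CreER, 714 (4.69%) in TATCre, 772 (5.07%) in Prx1CreERT2 and 395 (2.59%) in Bmi1IRESCreERT2. At least 8-fold lower were 518 (3.40%), 748 (4.91%), 652 (4.28%) and 91 (0.598%).

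Whether the difference from control differed between the Cre groups was tested transcript by transcript with a moderated F test over the 4 groups. It called 1604 transcripts (10.5% of those tested) at an adjusted p under 0.05. Among the 555 transcripts that were at least 8-fold higher in the tumours, 119 (21.4%) were called, and among the 534 at least 8-fold lower, 71 (13.3%). Of all 5312 called higher it was 669 (12.6%), of the 2460 called lower 234 (9.51%) and of the 7458 not called 701 (9.40%). These classes were chosen with the same tumours, so their shares are a description. The count moved with the TATCre libraries: it was 2125 without N178-Lleg, 955 without N123-RLN, 907 without N123-Rleg, 858 without N179-Larm and 916 with the 2 N123 libraries averaged.

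Over all 13, the tumours spread more than the controls, with the near-identical Chest1 and Chest2 counted as 2 controls. That pair, and the close Bone3 and Chest4, tend to lower the SD of the controls, here and below. No SD with these pairs averaged is given. The median SD of log2(RPKM + 1) over all tested transcripts was 0.45 in the 6 controls, 0.44 in the 5 Chest controls alone and 0.64 in the 13 tumours. Within the Rosa26CreER group it was 0.44 and within the TATCre group 0.50, which is near the controls, and within the 2 tumours of Prx1CreERT2 it was 0.18 and of Bmi1IRESCreERT2 0.38. The Prx1CreERT2 tumours share their zeros. An SD of 2 values also tends to come out lower than an SD of more values with the same spread. The SDs of the groups of 2, here and below, therefore cannot be set beside those of larger groups. Over the transcripts with a mean of at least 100 reads, the median SD was 0.37 in the controls, 0.52 in the tumours, 0.32 within Rosa26CreER, 0.44 within TATCre, 0.24 within Prx1CreERT2 and 0.34 within Bmi1IRESCreERT2. By the distance between pairs over these transcripts, the Prx1CreERT2 tumours were 1.11 apart and the Bmi1IRESCreERT2 tumours 0.99. The median of all pairs started by the same Cre was 0.98. The spread of the 534 transcripts at least 8-fold lower was larger, with a median SD of 1.91 in the tumours against 0.66 in the controls. Within groups it was 1.64 for Rosa26CreER, 0.63 for TATCre, 0.79 for Prx1CreERT2 and 0.49 for Bmi1IRESCreERT2. In the Rosa26CreER group R26CreEA1N2 stood apart. Over such sets drawn without the library measured, its mean log2 level was 4.12, against 1.11 to 2.00 in the rest of the group. For the 555 transcripts at least 8-fold higher the median SD was 1.1 in the tumours and 0.53 in the controls.

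To see which tumours held the transcripts of the controls, the sets were drawn again for each library from the other libraries of the fit and then measured in the library left out. The controls, measured so, spent 23.8 to 31.8% of their reads (median 26.3) on the transcripts that were at least 8-fold lower in tumours, a set of 514 to 605 transcripts. The median tumour spent 0.311% of its reads on its set, of 505 to 584 transcripts. In 5 tumours the share was higher: 14.9% in Bmi1CreER-EA1N2, 14.8% in Bmi1CreER-EA1N1, 12.8% in Prx1CreER-EA1N2, 6.19% in R26CreEA1N2 and 2.39% in TATCreEA1N179-Larm. The other 8 tumours held 0.147 to 0.352%. No tumour reached the range of the controls. The 2 Prx1CreERT2 tumours were at opposite ends, since Prx1CreER-EA1N4 had the lowest share of all 13, at 0.147%. Both Bmi1IRESCreERT2 tumours were high, while in the Rosa26CreER and TATCre groups a single tumour was.

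These tumours held the transcripts of the controls in different ways. In Bmi1CreER-EA1N1, 49% of the set were no more than 2-fold below the mean log2 level of the controls. In Bmi1CreER-EA1N2 it was 23.7%, in Prx1CreER-EA1N2 17.2% and in R26CreEA1N2 16.8%, and in the other 9 tumours 0.195 to 7.92%. The controls themselves had 58.5% (Chest3) to 92.3% (Bone3). The 10 transcripts of the set with the most reads held 73.2% of its reads in Prx1CreER-EA1N2, 65.5% in Bmi1CreER-EA1N2 and 54.9% in Bmi1CreER-EA1N1, against 49.5 to 55.9% in the controls. Prx1CreER-EA1N2 thus came near the controls in fewer transcripts and held its reads in few of them. Bmi1CreER-EA1N1 was the tumour nearest to any control, 1.48 from Chest4. It was the highest tumour in 274 of the 534 transcripts at least 8-fold lower, a set chosen with this tumour in the fit. How often it was the highest over all tested transcripts was not counted. Its median log2 level over the tested transcripts, 3.59, was the highest of the 19 libraries. Without transcripts under 100 bases, the shares were 14.7, 14.6, 12.6, 6.12 and 2.36% in the 5 tumours in the order above.

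The sets that were at least 8-fold higher in tumours showed less contrast between tumours. Measured in the library left out, they held 11.4 to 30.7% of tumour reads (median 20.4) and 0.607 to 1.75% of control reads. The lowest tumours were Bmi1CreER-EA1N2 at 11.4% and Bmi1CreER-EA1N1 at 15.6%, and the highest was Prx1CreER-EA1N4 at 30.7%. The tumours and the controls do not overlap in this share. In Bmi1CreER-EA1N1, 94.8% of the set were above the highest control, in Bmi1CreER-EA1N2 93.6%, and over all 13 tumours 77.2% (TATCreEA1N123-Rleg) to 97.2% (Prx1CreER-EA1N4). Set against the mean log2 level of the other tumours, 68.9% of the set were no more than 2-fold below it in Bmi1CreER-EA1N1. In Bmi1CreER-EA1N2 it was 63.2%. The median over all 13 tumours was 79.5%, and the lowest was 59.2% in TATCreEA1N123-Rleg. The Bmi1IRESCreERT2 tumours thus held both kinds of transcripts, with fewer of this set near the level of the other tumours than in the median tumour.

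**Figure D5:**
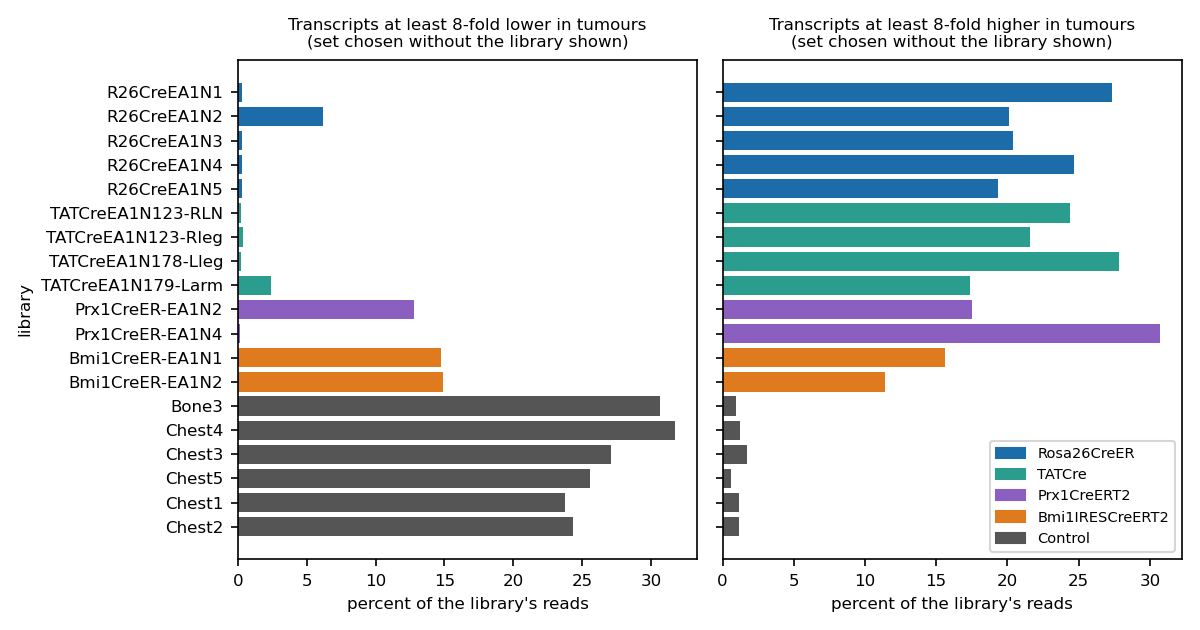
Share of each library's reads, in percent, on transcripts at least 8-fold lower (left) and at least 8-fold higher (right) in tumours, with the sets drawn without the library shown. Bars are single libraries coloured by group. The 6 controls hold 23.8 to 31.8% on the left and at most 1.75% on the right, while 5 tumours hold 2.39 to 14.9% on the left and the other 8 at most 0.352%.

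Leaving out the 2 Bmi1IRESCreERT2 tumours, a choice made after these shares were seen, changed the main comparison little, with 7759 transcripts called, 5276 higher and 2483 lower.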

How the data were processed

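The authors deposited 1 table of RPKM for 55419 mouse transcripts with 1 column per library, and its 32 columns were matched to the samples by title. Per the submitters' processing notes, CASAVA 1.8.2, Novoalign 2.07.03 and the build mm9 were used. The counting program and what a transcript's length stands for are not given in the sources used here. A second deposited table, of human tumours, was not used here. Chromosome positions were not used either.

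RPKM are not counts, so limma 3.58.1 (R 4.3.3, eBayes with trend, two-sided) was fitted to log2(RPKM + 1) over 15230 transcripts that reached 1 RPKM in 6 or more of the 32 libraries. A model of 4 tissue types gave the main contrast. A model of 7 groups gave the 4 Cre contrasts and the F test. Adjustment was by Benjamini-Hochberg over all 15230, with a threshold of 0.05. A pseudocount of 1 understates the change of low transcripts. On simulated data of this comparison with 15230 transcripts, of which 100 were changed at each fold, 21% of 2-fold and 67% of 4-fold changes were recovered. There, 2 unchanged transcripts were called. Recovery at an adjusted threshold depends on the share of transcripts that change. Far more were called in the real data, so these figures do not give the sensitivity there. No count model was run. Library measures were compared by exact permutation over 27132 arrangements.

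The smallest steps between RPKM values give the worth of 1 read, and from it lengths and depths. All 16398 transcripts above 0 in at least 6 libraries gave reads and a length. Of the values, 99.99% were whole within 0.05 reads, and 99.9% of lengths were whole within 0.05 bases. Tested on 5000 simulated transcripts, 99.98% of lengths were right, and 99.8% of those under 100 bases. The recovered lengths ran from 2 bases, with a median of 1206. Libraries that share zeros were found from the pattern of zeros over all transcripts. The reads served for depths, shares and an alternative unit.

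The libraries, lists and rules were chosen with earlier results of these data known. The named transcripts are the first 2 higher and the first 2 lower by the rule stated with them. The lists of genes and markers were left out, since the files pair no identifier with a gene. Alternatives changed the pseudocount, zeros, filter, lengths, scaling, unit, libraries in the fit, trend, array weights, the weight of Cre groups and the controls, and left out each library in turn.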

Additional observations from a re-analysis of the deposited data

Results flagged for a closer look

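Single libraries were set against their group in 33 groups of 4 or 5 tumours or 6 controls over the measures reported, and chance alone would mark about 1 in 20 such groups. In 4 of them the listed value of a library lay far from those of the others of its group. For uc009kic.1 it was R26CreEA1N3 with 0.189 RPKM, which is 1 read, where the other 4 Rosa26CreER tumours were listed at 0. The partner of R26CreEA1N3 in shared zeros, Bmi1CreER-EA1N1, had 178 reads, so that 1 read could be listed. For uc008odn.1 it was R26CreEA1N2 with 2.56 RPKM from 6 reads, again with the other 4 listed at 0. Where both partners are at 0, as R26CreEA1N1 and Bmi1CreER-EA1N2 were for both transcripts, a 0 can stand for more than 6 reads. The 0 of R26CreEA1N4 was listed beside 1212 and 439 reads in its partner Chest4. For these transcripts the values therefore cannot show that R26CreEA1N3 and R26CreEA1N2 lay apart from all others of their group. In the share of reads on transcripts at least 8-fold lower in tumours, R26CreEA1N2 with 6.19% and TATCreEA1N179-Larm with 2.39% stood above the rest of their groups.

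The difference from control differed between the 4 Cre groups in 1604 transcripts by the moderated F test of limma.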

How the results depend on the processing

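The main comparison gave between 6396 and 9154 calls (the latter with array weights) under 38 other settings, each within 1.5 times 7772, and the 4 named transcripts kept their direction and call in 36 settings each. Over the 6781 transcripts with a mean of at least 100 reads, where fewer were tested, the counts were 4461 in all (3281 higher, 1180 lower), 4174 for Rosa26CreER, 4188 for TATCre, 3042 for Prx1CreERT2, 1294 for Bmi1IRESCreERT2 and 618 in the F test. With zeros filled with reads, none of these counts moved by over 1.5 times. Without 1 library at a time the counts ran from 6940 to 7970 in all, 6336 to 7245 for Rosa26CreER, 6060 to 7057 for TATCre, 1672 to 5465 for Prx1CreERT2 and 650 to 2012 for Bmi1IRESCreERT2, from 858 to 2125 in the F test, and from 1819 to 2262 and 657 to 933 for transcripts with all tumours above or below the controls. Leaving out a library cannot lower the counts with all tumours above or below the controls, which were 1814 and 656 with every library. With only the 19 libraries in the fit, Bmi1IRESCreERT2 had 3002 calls and the F test 2563. With the N123 libraries averaged the F test had 916. Under median ratio scaling 1074 transcripts had all tumours above and 1280 all below the controls, and under quantile normalization 970 and 1177, settings added after the data were seen. With the replicate block, the number in the title over 9 tumours and 6 controls, 7729 transcripts were called, against 8250 for the same libraries with no replicate block. Whether the numbers pair the samples cannot be told from 5 numbers with Chest1 and Chest2 near-identical. For the same-numbered R26CreEA1 and Chest libraries, deviations correlated at 0.06, -0.10, -0.10, 0.38 and 0.12, and 2 of 5 correlated best with their own number. R26CreEA1N4 and Chest4, at 0.38 and among these 2, share their zeros. The depth leaves changes of transcripts with few reads undetected.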
